A study of Mus musculus with 8 samples.

Results

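Nr4a1, Nr4a2, Nr4a3, Egr2, Egr3, Nfatc1 and Cd69, 7 of the 31053 genes in the count tables, were followed through the CD4 T cells of the mouse colon. They were chosen by name, as genes that T cells switch on after their antigen receptor is engaged, with earlier results of these data known. Each had 1 row in the tables. The libraries were single-cell RNA libraries (10x Genomics, 3′ ends, about 10000 cells loaded each) of lamina propria cells, obtained by collagenase, DNase and dispase digestion and a Percoll gradient, and enriched for CD4+ T cells with a Miltenyi kit. There were 2 libraries in each of 4 groups of C57BL/6 mice aged 10 to 12 weeks, kept free of specific pathogens: wildtype or mutant, and untreated or treated with dextran sulfate sodium (DSS), a polymer that injures the colon epithelium. Treated mice drank 2% DSS for 7 days and water for 3 days, untreated mice drank water throughout, and all were taken on day 10. The mutant mice carry a knock-in substitution in 1 gene. Gene counts cannot show a substitution, so the genotype labels were not checked here. The series describes the 2 libraries of a group as independent biological replicates. Nothing in the labels states that they were pooled.

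When the antigen receptor of a T cell is engaged, calcium entry activates calcineurin and the NFAT factors, and the Ras and MAP kinase branch induces the EGR factors. Nr4a1 (Nur77), Nr4a2 and Nr4a3 encode nuclear receptors that act without a known ligand. They are induced within hours of receptor signalling and are also linked to the restraint of T cell responses and to regulatory T cells. Egr2 and Egr3 encode zinc finger factors of the MAP kinase branch with roles in tolerance and in follicular helper cells. Nfatc1 encodes an NFAT factor that is itself induced by NFAT, and Cd69 a surface receptor that holds activated and resident cells in tissue by opposing the egress receptor S1PR1.

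The promoters of the 3 Nr4a genes are shown because the genes did not respond alike below, while their sequences share a feature. Each line gives the 250 bases before a RefSeq transcript start on GRCm38.p6, read 5′ to 3′ on the gene's strand. Capitals mark the half-site of the cAMP response element (TGACG, or CGTCA on the other strand) and, in Egr2, the CArG box bound by serum response factor.
Nr4a1, chr15:101266596-101266845, plus strand: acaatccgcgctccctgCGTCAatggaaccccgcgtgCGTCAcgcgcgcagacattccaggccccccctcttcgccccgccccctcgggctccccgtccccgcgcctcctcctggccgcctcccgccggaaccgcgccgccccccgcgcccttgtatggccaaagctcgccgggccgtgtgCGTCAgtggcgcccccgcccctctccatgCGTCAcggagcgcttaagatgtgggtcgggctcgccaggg
Nr4a2, chr2:57124004-57124253, minus strand: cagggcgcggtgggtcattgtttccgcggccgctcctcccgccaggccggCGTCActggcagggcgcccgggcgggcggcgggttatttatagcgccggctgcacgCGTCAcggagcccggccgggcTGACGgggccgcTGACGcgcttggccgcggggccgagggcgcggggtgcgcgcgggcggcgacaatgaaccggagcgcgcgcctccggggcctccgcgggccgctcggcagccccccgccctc
Nr4a3, chr4:48045055-48045304, plus strand: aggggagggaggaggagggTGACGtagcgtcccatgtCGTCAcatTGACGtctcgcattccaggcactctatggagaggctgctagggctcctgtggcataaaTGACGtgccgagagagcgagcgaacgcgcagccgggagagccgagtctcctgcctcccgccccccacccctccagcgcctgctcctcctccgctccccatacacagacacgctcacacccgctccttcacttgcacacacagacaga
Egr2, chr10:67537619-67537868, plus strand, 1 of its 5 windows: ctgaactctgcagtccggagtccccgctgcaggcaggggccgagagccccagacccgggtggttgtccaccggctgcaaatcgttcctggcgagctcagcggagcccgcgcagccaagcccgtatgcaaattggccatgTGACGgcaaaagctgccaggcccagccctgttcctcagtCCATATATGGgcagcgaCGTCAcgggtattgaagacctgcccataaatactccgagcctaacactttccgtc

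The Nr4a1, Nr4a2 and Nr4a3 windows each held 4 half-sites. Of 32851 windows of this length in RefSeq, 17.8% held at least 1 half-site and 0.137% held at least 4. The Egr2 window printed held 2 half-sites and 1 CArG box, a motif in 1.47% of windows. Searched on both strands, the EGR motif GCGNGGGCG occurred once in the Nr4a1 window and once in the Nr4a2 window, against 4.70% of all windows with it. The AP-1 motif TGANTCA (6.75% of windows) and the Nr4a response element AAAGGTCA (1.34%) were not found in the 4 windows printed. The NFAT core GGAAA, in 55.6% of all windows, occurred once in the Nr4a2 and once in the Egr2 window printed, and not in those of Nr4a1 and Nr4a3. Of the other 4 Egr2 windows, 2 held the same numbers of half-sites, CArG boxes and NFAT cores as the one printed, 1 held a CArG box, 3 NFAT cores and 0 half-sites, and 1 held none of these. The genes lie on chromosomes 15 (Nr4a1), 2 (Nr4a2), 4 (Nr4a3), 10 (Egr2), 14 (Egr3) and 6 (Cd69). A match in these letters is a description and shows no binding.

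The tables held 100673 cell barcodes. The authors' list kept 27420 of them, all with a Cd4 UMI (unique molecular identifier, 1 per captured transcript), and the median per kept cell was 2173 to 3523.5 UMIs by library. Pairs of libraries shared 21 to 64 barcodes in the tables and at most 9 among kept cells. Clustering without the 7 genes placed 20751 cells in 8 T cell clusters, with 6182163 to 14955621 summed UMIs per library. The clusters were named from markers. Th17-like cells (3942, led by Ccl20, Il17a and Il17f), regulatory T (Treg)-like cells (4664 in 2 clusters), Th1-like cells (4700), follicular helper-like cells (3013), naive or central memory-like cells (1400) and cycling cells (1427) were named, and 1 cluster of 1605 was not. The follicular helper-like cluster carried Sostdc1 but was led by the haemoglobin genes Hbb-bs and Hba-a1. The kept cells also held 2743 macrophage-like and 1679 fibroblast-like cells. The fibroblast-like clusters carried 1234 to 1377 CPM of T cell markers, against 3917 CPM in Th17-like and 310 CPM in macrophage-like cells. Whether such barcodes hold a T cell as well was not tested. The share of Treg-like cells among CD4 T cells was 12.0% to 16.4% in the untreated libraries and 23.2% to 28.9% in the DSS libraries. Values below are CPM, a gene's UMIs per 1000000 UMIs in the sum over the cells of a population in 1 library. Fewer cells of a type and less RNA per cell cannot be told apart in the sum over all CD4 T cells.

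Cd69 and Nr4a3 were found in the most T cells, and Egr2 and Egr3 in few. After each cell was thinned to 1000 UMIs, 30.8% of CD4 T cells had a Cd69 UMI, 22.9% Nr4a3, 12.1% Nfatc1, 10.7% Nr4a1, 6.10% Nr4a2, 1.06% Egr2 and 0.549% Egr3 (means of 8 libraries, 597 shallower cells left out). Before thinning the shares were 54.0%, 43.3%, 28.9%, 24.1%, 13.4%, 2.63% and 1.42%, at median depths of 1946.5 to 2882 UMIs. Fibroblast barcodes without a Cd4 UMI, at median depths of 4182 to 7486 UMIs, gave thinned shares of 3.85% for Cd69, 7.63% for Nr4a3 and 3.37% for Nfatc1, lower than in T cells. For the immediate-early genes they gave more: 27% for Nr4a1, 9.71% for Nr4a2, 5.37% for Egr2 and 3.24% for Egr3. Fibroblasts express these 4 genes themselves and are no blank for them. The 6 fibroblast markers summed to 9.07 to 41.9 CPM in the T cell sums against 9347 to 20760 CPM in fibroblast-like cells. At that ratio fibroblast RNA would supply at most 1.23% of the Egr3 level in T cells, and at most 1.45% for Egr2.

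The 7 genes did not mark the same subset. Levels are means ± SD over 8 libraries. Cd69 was highest in Th17-like cells (639 ± 86.7 CPM), followed by Th1-like (455 ± 75.5), naive or central memory-like (411 ± 83.5), Treg-like (373 ± 64.7), follicular helper-like (321 ± 32) and cycling cells (315 ± 74.2). Past the gap between the first and the second, each step was smaller than the SD of the higher of the neighbours. Egr2 was highest in follicular helper-like cells (23.6 ± 10.3 CPM), ahead of Th17-like (10.8 ± 4.37), naive or central memory-like (10.4 ± 7.81), Th1-like (9.49 ± 4.65), cycling (6.56 ± 3.70) and Treg-like cells (4.11 ± 2.00). The Th17-like, naive or central memory-like and Th1-like levels of Egr2 were within 1 SD of each other.

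Among the Nr4a genes, Nr4a2 stood highest in Th1-like cells (127 ± 45.2 CPM), ahead of follicular helper-like (92.7 ± 37.7), cycling (63.3 ± 38.8), Th17-like (57.5 ± 15.3), naive or central memory-like (53.4 ± 17.9) and Treg-like cells (47.5 ± 12.2). Nr4a3 was highest in follicular helper-like (384 ± 82.6), Th17-like (361 ± 117) and Th1-like cells (314 ± 66.9), then naive or central memory-like (265 ± 80.2), Treg-like (211 ± 24.4) and cycling cells (150 ± 28.4). Nr4a1 ran from Th17-like (146 ± 51.2) through Th1-like (130 ± 31.9), Treg-like (121 ± 28.7), cycling (112 ± 19.8) and naive or central memory-like (94.7 ± 28.7) to follicular helper-like cells (88.5 ± 23.6). All neighbouring steps of Nr4a1 were smaller than the SDs. Nfatc1 was highest in follicular helper-like (170 ± 27), Th17-like (158 ± 26.1) and Th1-like cells (153 ± 36.9) and lowest in naive or central memory-like cells (80.0 ± 16.9), with Treg-like (113 ± 11.7) and cycling cells (106 ± 20.6) between. Egr3 lay between 3.25 ± 2.80 CPM in cycling and 8.81 ± 3.54 CPM in naive or central memory-like cells.

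**Figure D1:**
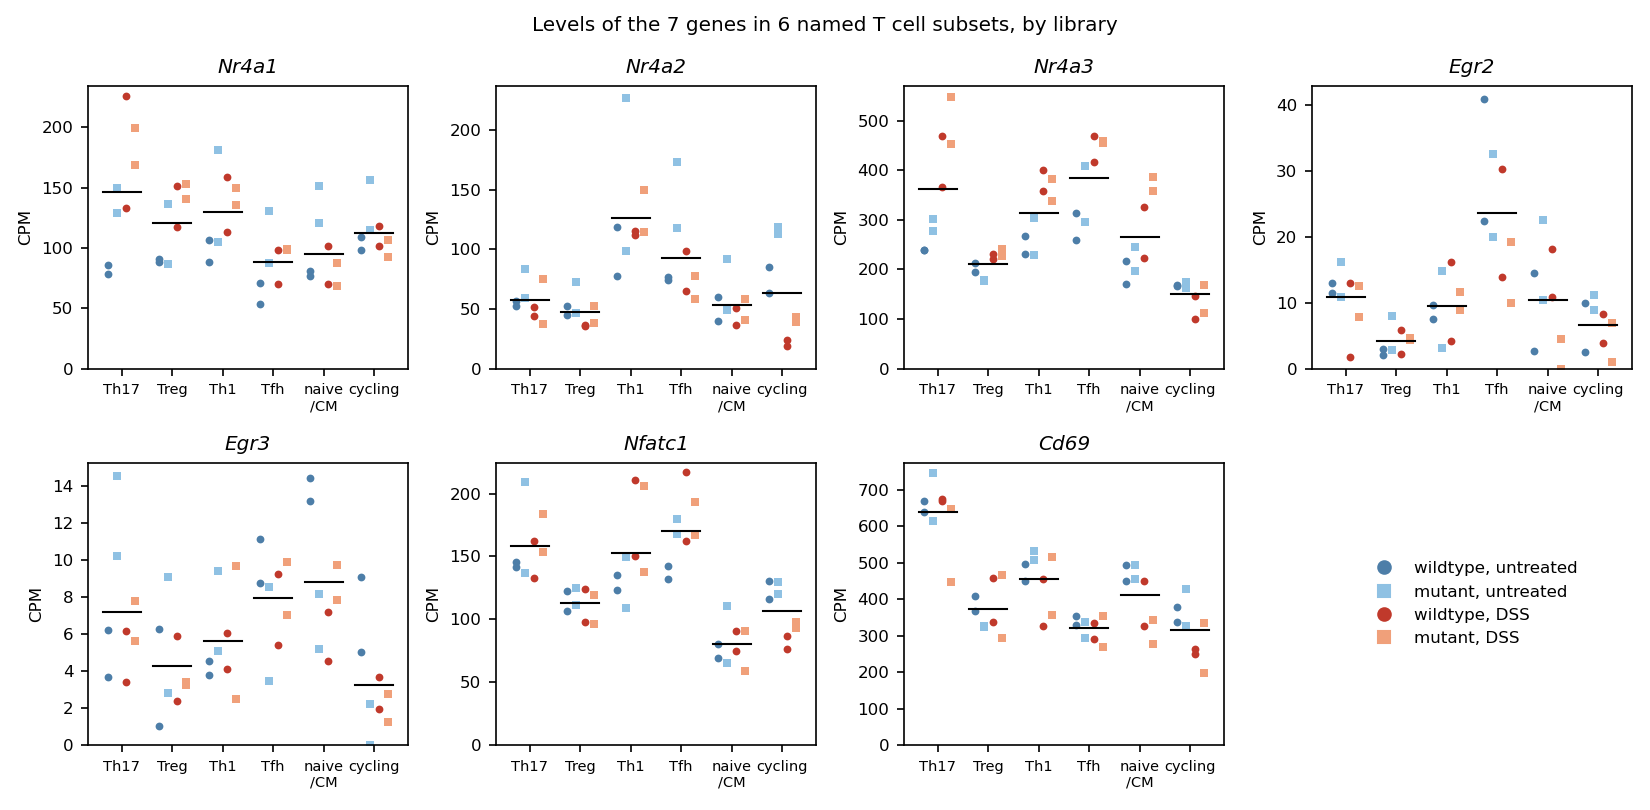
Level of each gene (CPM, linear axis from 0) in the 6 named subsets: Th17, Treg, Th1, follicular helper (Tfh), naive or central memory (naive/CM) and cycling cells, each named by its markers. Points are the 8 libraries, coloured by group with genotype as shape, and black bars are means; Cd69 is highest in Th17-like cells (mean 639), Egr2 in follicular helper-like cells (23.6) and Nr4a2 in Th1-like cells (127).

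Each subset was set against the mean of the other 5 in a fit over 48 sums with library as a block (edgeR quasi-likelihood test, Benjamini-Hochberg adjustment over 8634 genes, called at an adjusted p under 0.05). Of the 42 pairs of gene and subset, 29 were called. In these comparisons 33.2% to 66.4% of all genes were called, so the number of called members is not a result about them. The sizes and the agreement of libraries are given instead, as a description of each gene. The share of all genes that agree in 8 of 8 libraries is not given, here or in the next paragraph. Egr2 was higher in follicular helper-like cells by 1.47 ± 0.19 (log2, SE, adjusted p = 1.2e-09) and in 8 of 8 libraries. Nr4a2 was higher in Th1-like cells by 1.16 ± 0.11 (adjusted p = 3.2e-13) and Cd69 in Th17-like cells by 0.75 ± 0.06 (adjusted p = 2.5e-17), each in 8 of 8 libraries. The 11 alternatives tried for this test were not all of those listed under the processing. Of the 29 calls, 25 held in all 11 alternatives, and these 3 are among the 25. The like count over all called genes is not given. In Th17-like cells Nr4a3 (0.48 ± 0.08) and Nfatc1 (0.36 ± 0.08) were also higher in 8 of 8 libraries.

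Within the same subset the genes went apart. In follicular helper-like cells Nr4a3 was higher by 0.60 ± 0.08 (adjusted p = 4.5e-09), Nfatc1 by 0.49 ± 0.08 (2.1e-07) and Nr4a2 by 0.52 ± 0.13 (adjusted p = 0.000544), while Nr4a1 fell by 0.48 ± 0.09 (2.3e-05) and Cd69 by 0.45 ± 0.07 (adjusted p = 5.6e-08). Treg-like cells were lower for Egr2 (-1.40 ± 0.24, adjusted p = 2.0e-06), Nr4a2 (-0.68 ± 0.13, 2.2e-05) and Nr4a3 (-0.50 ± 0.09, adjusted p = 1.8e-06), each in 8 of 8 libraries, and Nr4a1 differed there by 0.03 ± 0.08 (adjusted p = 0.841). Cycling cells, whose median depth was 5118 to 9104 UMIs, had the lowest Nr4a3, by -1.07 ± 0.09 (adjusted p = 1.4e-15). In naive or central memory-like cells Nfatc1 fell by 0.55 ± 0.11 (adjusted p = 2.3e-05). The fitted difference of Cd69 there was 0.21 ± 0.07 (adjusted p = 0.0129), although its mean level was 411 CPM against 421 CPM in the other subsets, so the sign differs between the fitted value and the CPM. It was not called without the filter on low counts (0.0551) or without wildtype or mutant untreated replicate 1 (0.0635 and 0.0523; range over alternatives 0.00413 to 0.0635).

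The contrast of Treg-like with Th17-like cells showed all 7 genes at lower fitted levels in Treg-like cells. 6 of the 7 were called, beside 32.7% of all genes (16% in this direction). The shares of all genes with a lower fitted level, or lower in 8 of 8 libraries, are not given. Cd69 fell by 0.82 ± 0.08 (adjusted p = 1.2e-13), Nr4a3 by 0.82 ± 0.11 (adjusted p = 2.7e-09) and Nfatc1 by 0.57 ± 0.10 (adjusted p = 2.3e-06), each lower in 8 of 8 libraries. Egr2 fell by 1.43 ± 0.30 (adjusted p = 8.3e-05) and was lower in 7 of 8. Nr4a1 fell by 0.31 ± 0.10 (adjusted p = 0.0146), lower in 5 of 8 libraries, and was not called without the heat-shock-high cells described below (-0.26, 0.0586) or without the wildtype DSS replicate 2 (-0.26, 0.0631) or the mutant DSS replicate 1 (-0.28, 0.0534; range over alternatives 0.00143 to 0.0631). Egr3 fell by 0.82 ± 0.31 (adjusted p = 0.0326), lower in 6 of 8 libraries, and was not called with cells gated by transcripts (-0.52, 0.120), at coarser clustering (-0.73, 0.0699), without the heat-shock-high cells (-0.87, 0.0648), or without the mutant untreated replicate 2 (-0.70, 0.107), the wildtype DSS replicate 1 (-0.72, 0.111) or the mutant DSS replicate 2 (-0.79, 0.0700; range 0.0149 to 0.120). Nr4a2 differed by -0.30 ± 0.17 (adjusted p = 0.183), and was called with no low-count filter (-0.31, adjusted p = 0.0263) and with cells gated by transcripts (-0.53, 0.0120; range 0.0120 to 0.50).

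The Nr4a genes were higher in 1 of the 2 clusters that make up the Treg-like cells in every library. The clusters were compared after their values were seen, so this is a description with no test. One cluster (1290 cells) carried Il1rl1, Klrg1 and Ikzf2, as in thymus-derived tissue Treg cells that respond to interleukin-33, and the other (3374 cells) Il10, Gzmb and Maf. Mean Nr4a2 was 107 ± 19.9 CPM in the first and 24.2 ± 16.6 CPM in the second (SD, n = 8). In each of the 8 libraries the first cluster was higher, with a range of 78.8 to 134 CPM against 10.5 to 62.4 CPM. Nr4a3 was 309 ± 53.9 against 173 ± 22.5 CPM and Nr4a1 174 ± 49.4 against 101 ± 26.5 CPM, also higher in 8 of 8. Cd69 was 359 ± 78.3 against 378 ± 60.8 CPM, with the first cluster higher in 1 of 8 libraries, and Nfatc1 128 ± 29.0 against 107 ± 16.0 CPM, higher in 6 of 8. Egr2 and Egr3 were under 5 CPM on average in both clusters. Shares of all genes higher in 8 of 8 libraries, or without overlap, are not given. These counts are thus no result about the members. Means in Th17-like cells were 57.5 CPM for Nr4a2, 146 for Nr4a1 and 361 for Nr4a3. Lower Nr4a2 and Nr4a1 in Treg-like than in Th17-like cells thus described the sum and not the Il1rl1 and Klrg1 cluster.

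**Figure D2:**
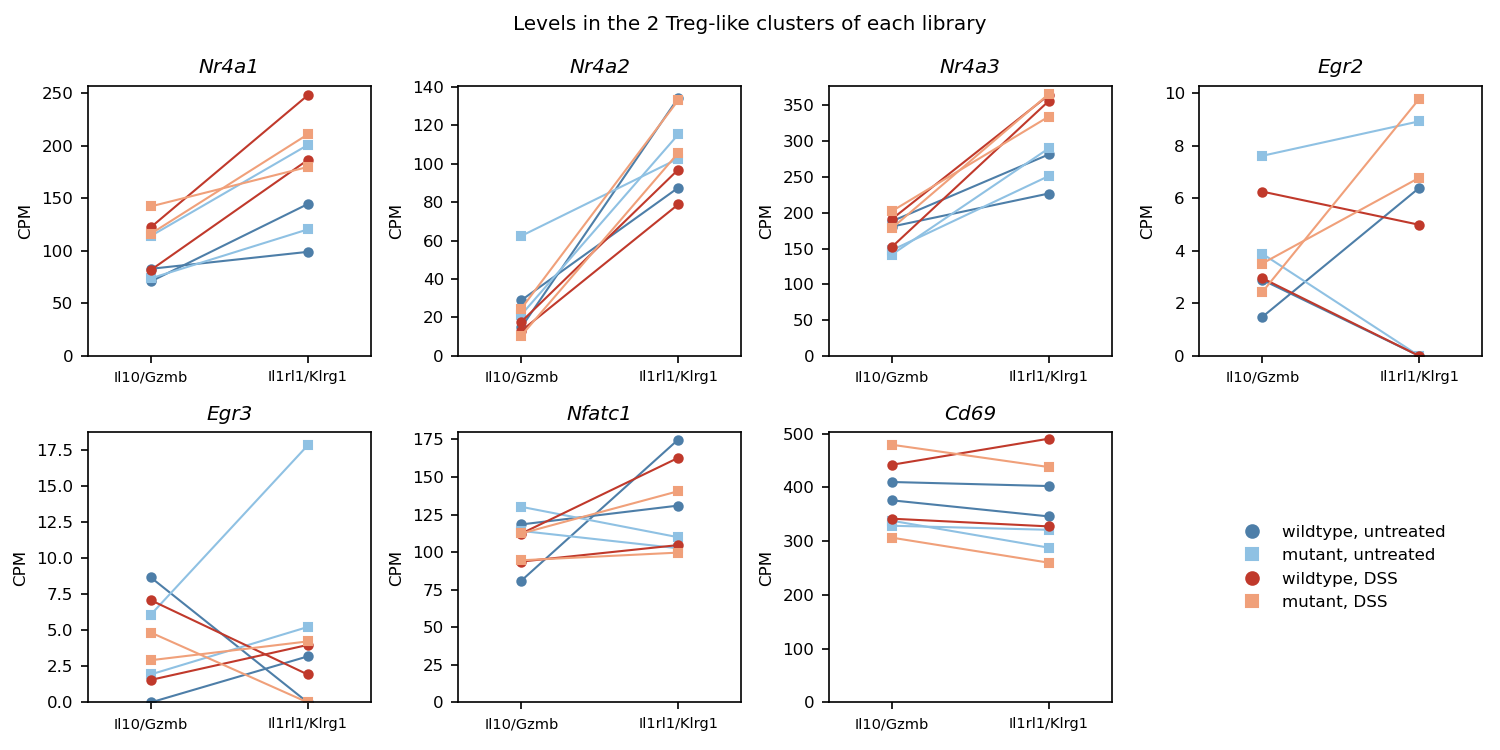
Level of each gene (CPM, linear axis from 0) in the Il10/Gzmb and the Il1rl1/Klrg1 cluster of Treg-like cells, 1 line per library. All 8 lines rise for Nr4a1, Nr4a2 and Nr4a3; for Cd69, 1 of 8 does.

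Over all CD4 T cells, DSS was followed by lower Nr4a2, Egr2 and Egr3 and by no called change of the other 4 genes. Nr4a2 was at 74.6 and 66.4 CPM in the wildtype untreated libraries and at 134 and 85.6 in the mutant untreated ones, against 52.7 and 56.5 in wildtype DSS and 47.6 and 71.5 in mutant DSS libraries. Mutant DSS replicate 2 lay above wildtype untreated replicate 2, and the other 3 DSS libraries lay below all untreated ones. Nr4a2 fell by 0.69 ± 0.15 (log2, SE, mean of both genotypes, adjusted p = 0.0164). Egr2 was at 10.1 and 10.8 CPM in wildtype untreated and 12.8 and 16.6 in mutant untreated libraries, against 10.9 and 5.79 in wildtype DSS and 7.36 and 7.29 in mutant DSS libraries. Wildtype DSS replicate 1 lay just above both wildtype untreated libraries, and the other 3 DSS libraries lay below all untreated ones. Egr2 fell by 0.73 ± 0.20 (adjusted p = 0.0340).

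Egr3 was at 6.08, 6.11, 7.12 and 7.08 CPM in the untreated libraries (wildtype first) and at 3.82, 5.24, 5.14 and 3.74 in the DSS libraries. All 4 DSS libraries lay below all untreated ones, as for 8.15% of the 11042 genes tested. Egr3 fell by 0.65 ± 0.19 (adjusted p = 0.0390). These 3 calls were set beside 18.4% of all 11042 genes called in this contrast (9.17% higher, 9.22% lower). The remaining differences were 0.22 ± 0.12 for Nr4a1 (adjusted p = 0.238), 0.24 ± 0.11 for Nr4a3 (0.152), -0.09 ± 0.09 for Nfatc1 (0.511) and -0.28 ± 0.16 for Cd69 (0.221). Cd69 was called without the filter on low counts (-0.27, adjusted p = 0.0406) and without mutant DSS replicate 1 (-0.48, 0.0229; range over alternatives 0.0229 to 0.557). The median over the 7 was -0.28, against 0.01 over all genes.

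Each of the 3 calls was lost without one or another of several libraries while the log2 differences stayed below 0. With a library left out they ran from -0.85 to -0.52 for Nr4a2, -1.0 to -0.53 for Egr2 and -0.75 to -0.52 for Egr3. Nr4a2 was not called without wildtype untreated replicate 1 or 2 (adjusted p = 0.0609 and 0.0743), mutant untreated replicate 1 (0.0554) or wildtype DSS replicate 2 (0.0549), nor with T cells picked by Cd3 and Trac UMIs (0.0638; range over all alternatives 5.0e-09 to 0.0743). Egr2 was not called without any one library (0.0508 to 0.135) except wildtype DSS replicate 1, and Egr3 without any one library (0.0670 to 0.133) except mutant DSS replicate 1. Egr3 was also not called with DESeq2 (-0.65, adjusted p = 0.142), with T cells picked by Cd3 and Trac UMIs (-0.51, 0.142) or without heat-shock-high cells (-0.73, 0.0662; range 0.0281 to 0.142), and the range for Egr2 was 0.000693 to 0.135. The direction of the 3 genes was lower in every one of these alternatives.

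**Figure D3:**
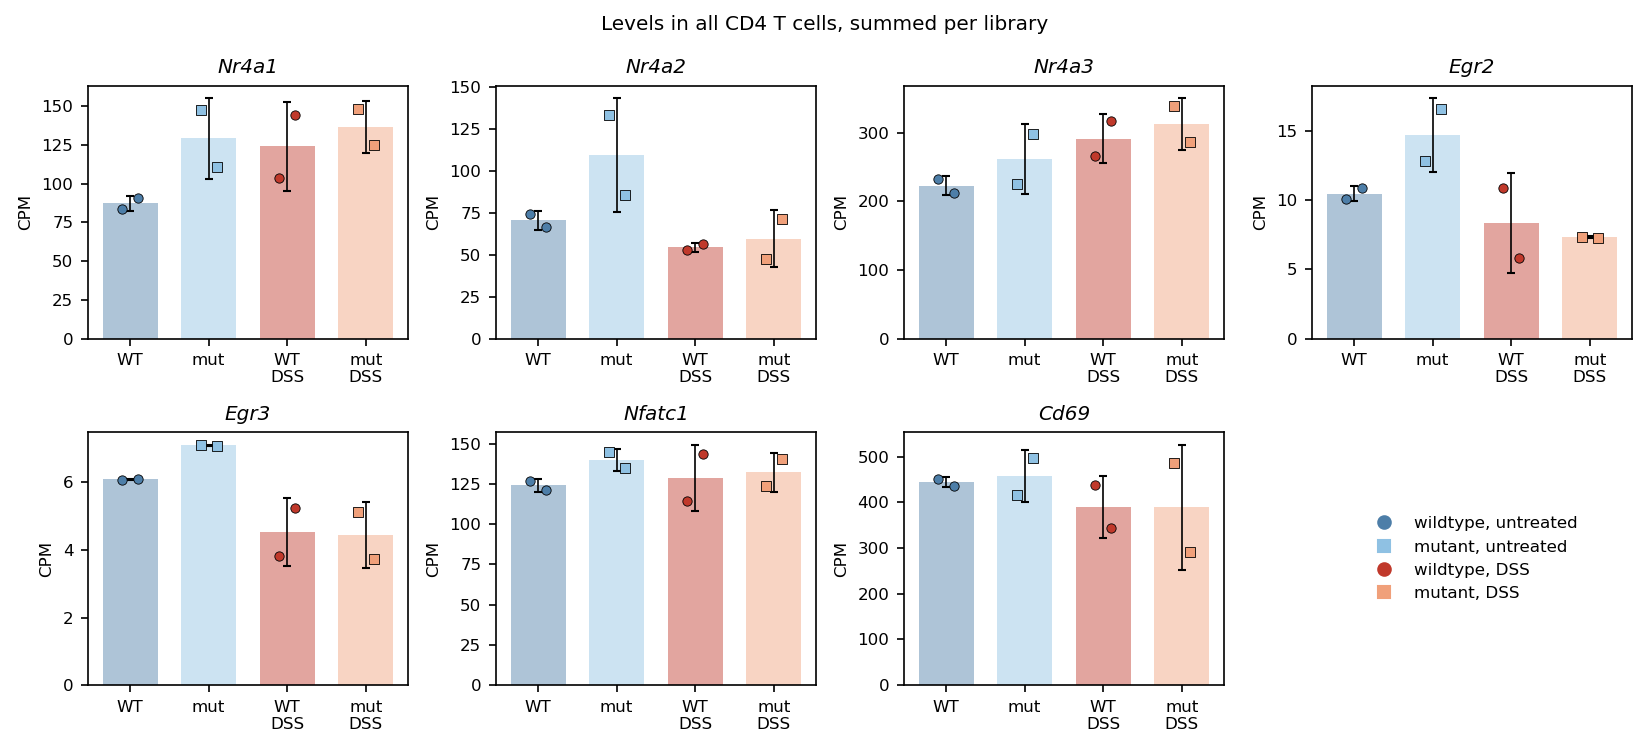
Level of each gene (CPM, linear axis from 0) in all CD4 T cells of each library; bars are means of the 2 libraries of a group, points the libraries and error bars SDs. Egr3 is at 6.08 to 7.12 in the untreated and 3.74 to 5.24 in the DSS libraries, and Nr4a2 is highest in mutant untreated replicate 1 (134).

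The mix of subsets also moved with DSS. The Il10 and Gzmb Treg-like cluster, where Nr4a2 was at 24.2 CPM, went from 9.23% to 12.4% of CD4 T cells in untreated to 16.4% to 21.2% in DSS libraries, and the Il1rl1 and Klrg1 cluster, where it was at 107 CPM, from 2.81% to 4.20% to 6.80% to 9.64%. With the 6 named subsets weighted equally, the log2 ratio of DSS to untreated means was -0.48 for Nr4a2, -0.45 for Egr2 and -0.34 for Egr3. In the unweighted sums over all CD4 T cells it was -0.66, -0.68 and -0.56. For Nr4a3 it was 0.48 weighted and 0.32 unweighted. The unweighted sums also hold the unnamed T cell cluster, so the cells differ as well as the weights. These are ratios of CPM with no test.

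By genotype, Nr4a2 fell by 0.95 ± 0.21 after DSS in the mutant mice (adjusted p = 0.0409), the 1 member called there beside 4.9% of all genes (2.26% higher, 2.64% lower). It was not called without either untreated wildtype library (0.0818 and 0.0811), either untreated mutant library (0.189 and 0.0577) or either mutant DSS library (0.0897 and 0.0638), nor with T cells picked by Cd3 and Trac UMIs (0.133) or 4 libraries alone (0.0877; range over alternatives 2.6e-08 to 0.189). Egr2 differed by -1.09 ± 0.28 (adjusted p = 0.0525) and passed the threshold with no low-count filter (0.000405), with DESeq2 (0.0450) and without wildtype DSS replicate 1 or 2 (0.0313 and 0.0285; range 0.000405 to 0.276). The others differed less: Egr3 by -0.79 ± 0.26 (0.0960), Cd69 by -0.32 ± 0.22 (0.380), Nfatc1 by -0.16 ± 0.13 (0.442), Nr4a1 by 0.00 ± 0.18 (0.999) and Nr4a3 by 0.17 ± 0.16 (0.518). The Nr4a1 value moved above 0 without heat-shock-high cells and with T cells picked by Cd3 and Trac UMIs, as listed under the processing below. In wildtype mice 0 of 7 were called, beside 0.417% of all genes. There was 1 member at an unadjusted p under 0.05, a threshold for which the share of all genes is not given. The wildtype differences were 0.44 ± 0.18 for Nr4a1 (adjusted p = 0.228), 0.32 ± 0.16 for Nr4a3 (0.317), -0.44 ± 0.22 for Nr4a2 (0.316), -0.36 ± 0.29 for Egr2 (0.528), -0.51 ± 0.27 for Egr3 (0.340), -0.02 ± 0.13 for Nfatc1 (0.962) and -0.25 ± 0.22 for Cd69 (0.578). The test of the difference between the genotypes called 0 of 7 (and 0% of all genes), with values from -0.73 ± 0.40 for Egr2 to -0.07 ± 0.31 for Cd69.

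In Th17-like cells Nr4a3 and Nr4a1 rose after DSS. Nr4a3 was at 239, 238, 277 and 301 CPM in the untreated libraries and at 367, 469, 453 and 548 in the DSS libraries, wildtype first in each. All 4 DSS libraries lay above all 4 untreated ones, as for 9.62% of genes at 20 CPM or more. Nr4a3 rose by 0.77 ± 0.12 (adjusted p = 0.00107) and was called under every alternative (adjusted p 1.1e-07 to 0.0222). Nr4a1 was at 78.7, 86.0, 129 and 150 CPM untreated and 134, 226, 200 and 169 after DSS. The highest untreated and the lowest DSS library overlapped. Nr4a1 rose by 0.71 ± 0.15 (adjusted p = 0.0102).

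Nr4a1 was not called without wildtype untreated replicate 1 (0.0535) or 2 (0.0779), without mutant untreated replicate 1 (0.0513) or with Th17 cells gated by transcripts (adjusted p = 0.0540; range 2.4e-05 to 0.0779). Calls in this contrast covered 5.31% of 7621 genes (2.77% higher, 2.55% lower). The other members differed by -0.40 ± 0.39 (Egr3, adjusted p = 0.562), -0.39 ± 0.34 (Egr2), -0.29 ± 0.20 (Nr4a2), -0.16 ± 0.12 (Cd69) and -0.02 ± 0.14 (Nfatc1), none called. In wildtype Th17-like cells Nr4a1 differed by 1.04 ± 0.22 and Nr4a3 by 0.78 ± 0.17 (adjusted p = 0.0851 for both, 0.0525% of all genes called, 0.0131% higher and 0.0394% lower), and in mutant cells by 0.38 ± 0.20 (0.308) and 0.76 ± 0.16 (adjusted p = 0.0150, 3.71% called, 1.77% higher and 1.94% lower). In wildtype cells both genes were called with no low-count filter (0.00013 and 0.00399), with 4 libraries alone (0.0226 for both) and without wildtype DSS replicate 1 (0.00576 and 0.0477) or mutant DSS replicate 1 (0.0412 and 0.0344) or 2 (0.0359 and 0.0272), with a highest value of 0.827 over the alternatives. The mutant call of Nr4a3 was lost without mutant untreated replicate 1 (0.162) or 2 (0.117) or mutant DSS replicate 2 (0.0934) and when gated by transcripts (0.0572; range over alternatives 0.00083 to 0.162). The difference between genotypes was not called for any member (0.0131% of all genes), and ran from -1.0 ± 0.77 for Egr3 to -0.02 ± 0.23 for Nr4a3.

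In Treg-like cells 0 of the 5 members with enough counts were called after DSS, beside 11% of all genes. Egr2 and Egr3, at 1.01 to 9.08 CPM, did not pass the filter on low counts. Nr4a3 was at 214, 195, 179 and 176 CPM untreated and 222, 232, 241 and 226 after DSS, again without overlap (12.1% of genes at 20 CPM or more), and differed by 0.24 ± 0.09 (adjusted p = 0.119), a difference that turned to -0.09 with Treg cells gated by transcripts. Nr4a1 differed by 0.45 ± 0.14 (adjusted p = 0.0508), a value that passed the threshold without the filter on low counts (0.00567), without heat-shock-high cells (0.0191), at coarser clustering (0.0497), or without mutant untreated replicate 1 (0.0393) or wildtype DSS replicate 1 (0.0316; range over alternatives 0.00567 to 0.236). Nr4a2 differed by -0.45 ± 0.17 (0.097), Cd69 by 0.10 ± 0.14 (0.703) and Nfatc1 by -0.12 ± 0.12 (0.573). With Treg cells gated by transcripts Nr4a2 (-0.90, adjusted p = 0.00362) and Nfatc1 (-0.49, 0.0135) were called, and Nr4a2 also without mutant DSS replicate 2 (-0.58, 0.0476). The ranges over alternatives were 0.00362 to 0.445 for Nr4a2 and 0.0135 to 0.927 for Nfatc1. By genotype, the 5 ranged from -0.48 ± 0.24 (Nr4a2) to 0.54 ± 0.20 (Nr4a1) in wildtype cells (0.372% of all genes called) and from -0.41 ± 0.23 (Nr4a2) to 0.36 ± 0.14 (Nr4a3) in mutant cells (2.06%, with 0.816% higher and 1.25% lower), with none called.

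**Figure D4:**
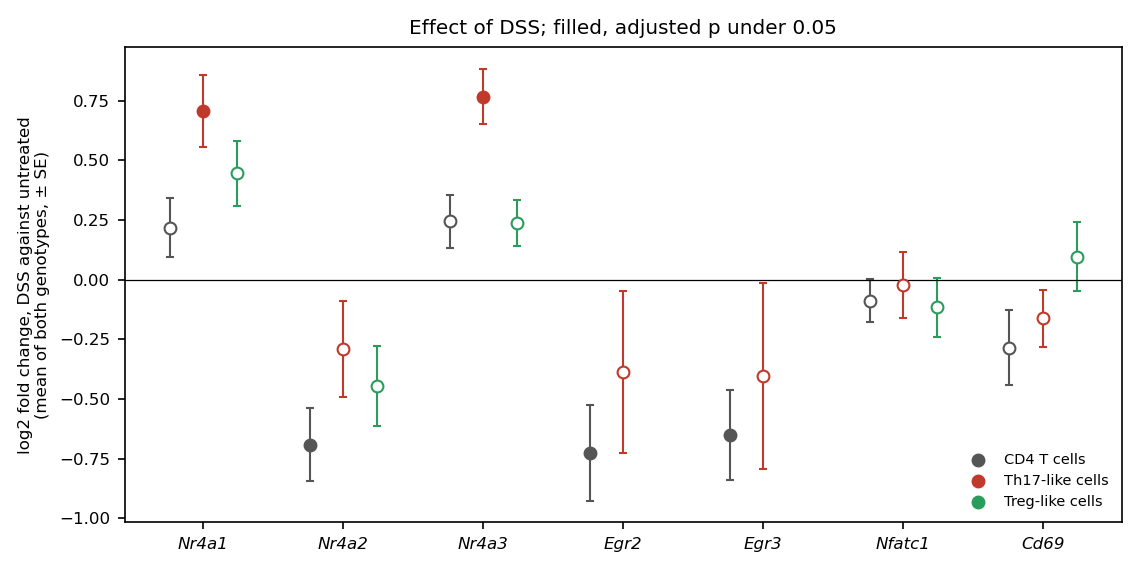
Log2 fold change of each gene, DSS against untreated, as the mean of both genotypes, with SE bars, in CD4 T, Th17-like and Treg-like cells; filled points have an adjusted p under 0.05. Nr4a1 and Nr4a3 are filled above 0 in Th17-like cells (0.71 and 0.77), and Nr4a2, Egr2 and Egr3 are filled below 0 in all CD4 T cells.

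The DSS effects of the 2 subsets were compared directly in a test added after the data were seen. The DSS effect on Nr4a3 was lower in Treg-like than in Th17-like cells, by -0.54 ± 0.12 (adjusted p = 0.0063, 1.88% of 8242 genes called). It was not called with DESeq2 (0.127) or without wildtype untreated replicate 1 (0.0910) or 2 (0.0836) or mutant DSS replicate 2 (0.0666; range over alternatives 8.8e-06 to 0.127). Within the Treg-like cells, Nr4a3 was at 227 to 290 CPM in untreated and 334 to 366 CPM in DSS libraries in the Il1rl1 and Klrg1 cluster, and at 142 to 188 and 152 to 202 CPM in the Il10 and Gzmb cluster, a difference that was not tested. The share of all genes without overlap between treatments in the Il1rl1 and Klrg1 cluster is not given. The other 6 differed by -0.21 ± 0.15 (Nr4a1), -0.16 ± 0.19 (Nr4a2), 0.63 ± 0.55 (Egr2), 0.02 ± 0.79 (Egr3), -0.13 ± 0.14 (Nfatc1) and 0.26 ± 0.10 (Cd69, adjusted p = 0.272), none called. With subsets gated by transcripts Nr4a2 (-0.68, adjusted p = 0.0258) and Nfatc1 (-0.46, 0.0305) were called beside Nr4a3, and Cd69 was called without wildtype DSS replicate 2 (0.38, adjusted p = 0.0451). Over all alternatives these 3 ranged up to an adjusted p of 1.0. All 4 DSS libraries were above all 4 untreated ones for Nr4a3 also in Th1-like (229 to 303 against 338 to 401 CPM, 13% of genes at 20 CPM or more) and follicular helper-like cells (260 to 408 against 417 to 468, 7.46%). In cycling cells Nr4a2 went from 63.6 to 119 CPM down to 19.2 to 43.4 CPM, without overlap (8.66%), and Nr4a3 from 163 to 174 to 100.2 to 169 CPM, with overlap.

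No member was called for the mutation in CD4 T, Th17-like or Treg-like cells, the 3 populations tested. Without the filter on low counts Nr4a1 (0.55, adjusted p = 0.0196) and Nr4a2 (0.62, 0.00468) were called in untreated CD4 T cells, and 1 member in untreated Th17-like cells. That setting gives smaller p-values for a like ratio of difference to SE, so calls gained only there are weak. The share of all genes called under it is not given for the mutation. In untreated mice the fitted differences of the 7 in CD4 T cells were above 0. The share of all genes above 0 is not given, and 0% of genes were called. The differences turned below 0 with T cells picked by Cd3 and Trac UMIs for Egr2 (-0.03) and Egr3 (-0.08), and without mutant untreated replicate 2 for Cd69 (-0.11) and Nr4a3 (-0.0049). Nr4a2 differed by 0.63 ± 0.22 (adjusted p = 0.818), Nr4a1 by 0.56 ± 0.18 (0.728), Egr2 by 0.49 ± 0.28 (0.947), Nr4a3 by 0.23 ± 0.16 (0.956), Egr3 by 0.22 ± 0.26 (0.980), Nfatc1 by 0.17 ± 0.13 (0.956) and Cd69 by 0.05 ± 0.22 (1.0). At an unadjusted p under 0.05 there were 2 of 7. The share of all genes at that threshold is not given here, so this count and the one after DSS are no result about the members. After DSS the differences ran from -0.24 ± 0.28 (Egr2) through -0.06 ± 0.27 (Egr3), -0.02 ± 0.22 (Cd69), 0.03 ± 0.13 (Nfatc1), 0.09 ± 0.16 (Nr4a3) and 0.12 ± 0.22 (Nr4a2) to 0.13 ± 0.17 (Nr4a1), with 0 at an unadjusted p under 0.05. Averaged over treatments they ran from 0.01 ± 0.16 (Cd69) to 0.38 ± 0.15 (Nr4a2). In Th17-like cells they ran from 0.04 ± 0.17 (Cd69) to 1.22 ± 0.53 (Egr3) untreated (0.0787% of all genes called) and from -0.32 ± 0.17 (Cd69) to 0.25 ± 0.16 (Nr4a3) after DSS. In Treg-like cells they ran from -0.27 ± 0.21 (Cd69) to 0.31 ± 0.22 (Nr4a1) and from -0.09 ± 0.20 (Cd69) to 0.36 ± 0.21 (Nr4a2).

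Heat-shock genes, which report protein stress and also respond to the warm enzyme digestion, were highest as a sum in the mutant untreated libraries. Summed over 12 genes they stood at 24366 and 24907 CPM in the mutant untreated T cells, against 10433 to 15164 CPM in the other 6 libraries. Nr4a2, Egr2 and Egr3 also had their 2 highest levels in the mutant untreated libraries. Nr4a1 and Nr4a3 were highest in mutant DSS replicate 1 (148.5 and 340 CPM), and Nfatc1 and Cd69 had only 1 of their 2 highest levels in the mutant untreated libraries. Cells with at least 2 UMIs of Hspa1a and Hspa1b together made up 38.5% and 22.0% of T cells in the mutant untreated libraries, 23.4% in mutant DSS replicate 2 and 3.23% to 10.3% in the rest. Of the 7 genes, 6 were higher in these cells in 8 of 8 libraries, and Nfatc1 in 6 of 8. Nr4a1 was at 197 ± 45 CPM in them against 101 ± 21.1 CPM in other T cells (SD, n = 8), a mean log2 difference of 0.95, and higher in 8 of 8 libraries. The log2 difference was 1.18 for Egr3, 1.05 for Egr2, 0.68 for Nr4a2, 0.50 for Cd69, 0.35 for Nr4a3 and 0.15 for Nfatc1. Deeper cells pass this limit more easily. The share of all genes higher in 8 of 8 libraries is not given, so the count of 6 is no result about the members.

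Without these cells the untreated mutant difference was 0.18 for Nr4a1 and 0.31 for Nr4a2, and it turned sign for Cd69 (-0.08) and Egr3 (-0.42). The DSS effect on Nr4a2 in CD4 T cells was -0.58 (adjusted p = 0.0103) on Egr2 -0.99 (adjusted p = 0.0180) and on Egr3 -0.73 (adjusted p = 0.0662, not called) without them, and that on Nr4a3 in Th17-like cells stayed at 0.77 (adjusted p = 0.00181). The 16 immediate-early genes that respond to tissue handling summed to 7342 and 8077 CPM in the mutant untreated T cells and 5650 to 6818 CPM elsewhere. Neither their part in the results nor that of the heat shock was tested. Plasma cell markers summed in the T cells to 301 to 856 CPM in untreated and 352 to 2571 CPM in DSS libraries, and their part was not tested either.

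**Figure D5:**
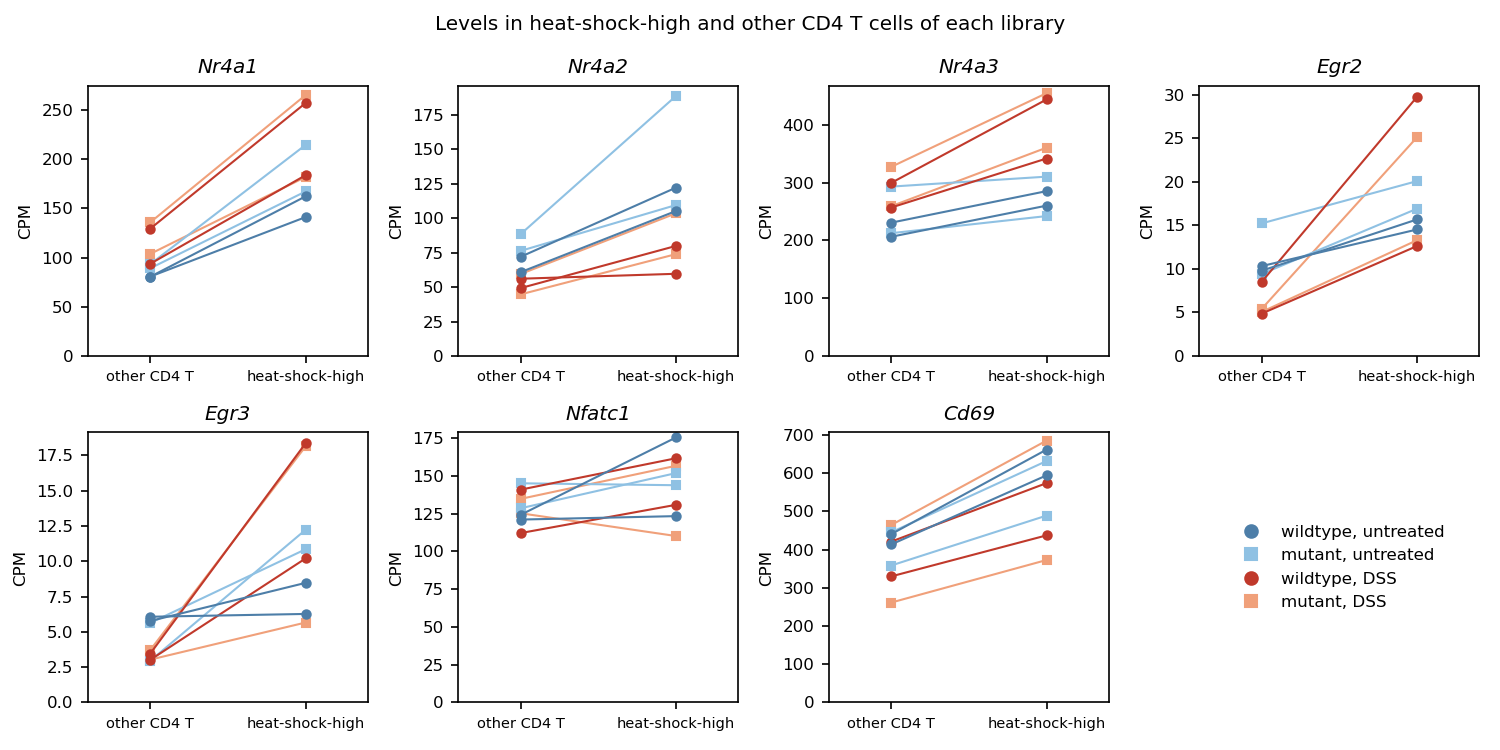
Level of each gene (CPM, linear axis from 0) in heat-shock-high cells and in the other CD4 T cells, 1 line per library. All 8 lines rise for 6 of the genes; for Nfatc1, 6 of 8 do.

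Cells with an Egr2 or Nr4a1 UMI more often had UMIs of several other members. Of the 202 thinned T cells with an Egr2 UMI, 33.4% had a Nr4a1 UMI, against 10.5% of the rest (means of 8 libraries, higher in 8 of 8), 54.4% against 30.5% had Cd69 and 41.9% against 22.7% had Nr4a3. Among 2190 cells with Nr4a1, 3.38% against 0.793% had Egr2. Nfatc1 differed less: 12.4% of Egr2 cells and 12.1% of the rest had it. Among 106 cells with Egr3, 11.4% had Nfatc1 against 12.1% of the rest, and cells with Nr4a2 had more Egr3 in 3 of 8 libraries. Cells of all T cell subsets, heat-shock-high cells included, were pooled for these shares. Shares for other pairs of genes are not given, so this is no trait of the members. Across the 48 sums of library and subset, which share libraries, the correlations of log2(CPM + 1) between members lay between -0.16 (Nr4a1 and Egr3) and 0.53 (Nr4a3 and Nfatc1).

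Over the same 48 sums, the genes at 20 CPM or more whose levels ran most like a member's were F2r (Pearson r 0.69), Phlda1 (0.67) and Tpst2 (0.65) for Nr4a1, Coq10b (0.71), Tnfaip8 (0.68) and Themis (0.64) for Nr4a2, and Kmt2e (0.84), Rbm39 (0.83) and Braf (0.82) for Nr4a3. For Egr2 they were Il21 (0.66), the follicular helper cytokine, Ndufaf4 (0.65) and Dennd2d (0.60). For Egr3 they were Rlf (0.65), Crebzf (0.64) and Vps13a (0.60), for Nfatc1 Itgal (0.85), Baz1a (0.77) and P2rx7 (0.76), and for Cd69 Kcnmb4 (0.82) and Gch1 (0.82). The sums share libraries and depth, so these values carry no p.

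The rest of the pathway after DSS in CD4 T cells is given by lists. The counts below stand beside 18.4% of all genes called (9.17% higher, 9.22% lower), and shares near these are no result about a list. Of the 26 receptor and proximal signalling genes 0 rose and 4 fell: Ptpn6 (-0.52), a phosphatase that limits receptor signals, Cd3g (-0.55), Trbc1 (-0.37) and Themis (-0.30). Of 17 calcium, calcineurin and NFAT genes 2 rose and 3 fell, with Itpkb (-0.38) and the calcium channel Orai1 (-0.49) lower and Nfatc3 (0.44) higher. Of 22 genes of the Ras, MAP kinase and EGR branch 2 rose and 6 fell, among them the ERK phosphatase Dusp6 (-0.67), Srf (0.77), Rasgrp1 (-0.58) and Egr1 (-0.47). Of 15 genes of the NF-kappaB branch 1 rose and 1 fell, and the one that rose was Tnfaip3 (0.39), an inhibitor of that branch. Among 12 EGR-linked and anergy genes 0 rose and Ndfip1 (-0.38) and Dtx1 (-0.37) fell. The list medians were -0.12, -0.08, 0.05, -0.16 and 0.03, against 0.01 for all genes.

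Of 17 activation-induced surface molecules 3 rose and 2 fell, with Tnfrsf9 (4-1BB) higher by 1.28 and Il2ra by 0.64, and Tnfrsf4 (-0.48) and Cd83 (-0.45) lower. Of 14 transcription factors Ikzf2 (0.45) rose and Tox2 (-0.69) fell. Of 14 cytokines Ltb (0.39) rose and Ifng (-0.92), Il21 (-0.79) and Xcl1 (-1.12) fell. Of 15 egress and resting genes 4 rose and 4 fell, led by the epithelium-binding integrin Itgae (1.67), Il7r (0.67), Klf2 (-0.57) and S1pr1 (-0.42). Tnfrsf9 and Itgae were among the 10 leading genes of both Treg-like clusters and Ikzf2 of one, and the Treg-like share was 12.0% to 16.4% in untreated and 23.2% to 28.9% in DSS libraries. Its part in these differences was not tested. Of the immediate-early genes 1 of 16 rose (Zfp36, 0.54) and 7 fell (Atf3 -2.19, Jund -0.85, Ier2 -0.53 first), and of the heat-shock genes 6 of 12 fell (Hspb1 -2.99, Hspe1 -1.08, Hsp90aa1 -1.10 and Hspd1 -1.11 first).

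In Th17-like cells 5.31% of all genes were called, against 18.4% in CD4 T cells, so the counts of called genes there are not compared with those above. The cAMP-responsive factor Crem rose by 0.72 ± 0.09 (adjusted p = 0.000481), Tnfaip3 by 0.61 and Tnfrsf9 by 0.91, while Tnfrsf4 (-0.87), Lag3 (-0.81), Tox2 (-0.77), Itpkb (-0.42) and Il22 (-1.02) fell. None of the 26 receptor genes (Trbc2 at -0.32 and Ptprc at 0.06 had the highest levels) or the 11 EGR-linked genes (Tgfb1 at -0.01, Sh2d2a at -0.03) was called. The counts higher and lower were 1 and 1 of 14 egress genes (Satb1 0.45, Klf2 -0.54), 1 and 2 of 16 immediate-early genes (Fosl2 0.74, Jund -0.78, Atf3 -1.80) and 0 and 6 of 12 heat-shock genes (Hsp90aa1 -1.11, Hspe1 -0.98, Hspb1 -2.09 and Hsp90ab1 -0.60 first).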

How the data were processed

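Per the labels' protocols the libraries were 10x Genomics 3′ single-cell RNA libraries, and the submitters' processing notes name Cell Ranger 3.1.0, Seurat 4.0.1 and the mm10 build. The authors deposited UMI counts per gene and barcode, not normalized, for barcodes of 500 UMIs or more, with a list of kept cells. How they chose those cells is not given in the sources used here. The 7 genes and all gene lists were chosen with earlier results of these data known.

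Kept cells were clustered with scanpy 1.11.5 (leidenalg 0.10.2, 30 components, 15 neighbours, resolution 1) on 1847 of 2000 variable genes, leaving out the 7 genes, immediate-early, heat-shock and effector genes. Genes that follow the 7 stayed in. No doublet caller was run. Clusters were named from marker lists. Counts were summed per library and population and tested with edgeR 4.0.16 (R 4.3.3, quasi-likelihood test, TMM, filterByExpr, Benjamini-Hochberg over all genes tested, threshold 0.05) with 8 libraries in each fit. Subset comparisons used sums of at least 50 cells with library as a block. The scripts were tested on simulated data. Alternatives were DESeq2 1.42.0, no filter, relative log expression factors, the 4 libraries compared alone, other definitions of T cells and subsets, clustering at resolution 0.5, no heat-shock-high cells, and each library left out. Without the filter the spread was treated as nearly known despite 2 libraries per group, which made p-values small. For Egr2 after DSS in mutant CD4 T cells, the unadjusted edgeR p was 8.8e-06 (-1.07 ± 0.24) without it, against 0.00294 (-1.09 ± 0.28). Calls gained only there, and low ends of ranges that come from it, are weak.

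All 7 genes are printed in 9 comparisons, and in the others the count called with the lowest and highest, a departure from the rule of printing all 7 everywhere. From each list up to 4 called genes by smallest p are named, or the 2 with the highest level where none was called. Some genes that these rules name are not reported here. With 2 libraries against 2, an exact permutation test of a single gene could not go below p = 0.333, so none was used.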

Additional observations from a re-analysis of the deposited data

Results flagged for a closer look

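The DSS effect on Nr4a3 differed between 2 T cell subsets by a direct test. In Th17-like cells Nr4a3 rose by 0.77 ± 0.12 (log2, SE), from 238 to 301 CPM in the untreated libraries to 367 to 548 CPM in the DSS libraries. In Treg-like cells it differed by 0.24 ± 0.09, from 176 to 214 CPM to 222 to 241 CPM. The difference between these effects was -0.54 ± 0.12 (edgeR, adjusted p = 0.0063), and it was not called with DESeq2 (0.127) or without wildtype untreated replicate 1 (0.0910) or 2 (0.0836) or mutant DSS replicate 2 (0.0666). The test was added after the separate effects had been seen, and both subsets come from the same 8 libraries, which the fit holds as a block.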

How the results depend on the processing

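Without heat-shock-high cells, Cd69 turned to 0.016 in the CD4 T interaction and to -0.083, -0.076 and -0.10 for the untreated mutant difference, the mean mutation effect and the untreated mutant Th17-like difference. Egr3 turned to 0.036 for the mutant after DSS and -0.42 for the untreated mutant, Nr4a1 to 0.30 for DSS in the mutant and 0.14 in the Treg-like interaction, Nr4a2 to -0.018 for the mutant after DSS and Nr4a3 to 0.030 in the Th17-like interaction. With T cells picked by Cd3 and Trac UMIs the turned values were -0.020 (Cd69, mean mutation effect), -0.035 and -0.083 (Egr2 and Egr3, untreated mutant), 0.12 (Egr3, mutant after DSS), 0.040 (Nfatc1, DSS in wildtype) and 0.14 (Nr4a1, DSS in the mutant). With subsets gated by transcripts they were -0.19 and -0.092 (Cd69 and Nr4a3, mean DSS effect in Treg-like cells), 0.033 (Cd69, Treg-like mutant after DSS), -0.054 and -0.13 (Nr4a3, DSS in mutant and wildtype Treg-like cells), 0.16 (Egr3, Th17-like interaction), and -0.092, -0.016 and -0.055 (Egr2, Egr3 and Cd69, difference of the DSS effects). At resolution 0.5 they were 0.0079 (Egr2, DSS in wildtype Th17-like cells), 0.020 (Nfatc1, mean DSS effect there) and 0.023 (Nr4a3, interaction there). Nr4a1 for DSS in the mutant was 0.021 without a filter and 0.0021 with 4 libraries. The cause was not tested.

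The counts of members called in this and the next paragraph are given without the matching share of all genes. The all-gene ranges further below cover DSS contrasts only, so the moves are no result about the 7 genes. The number of the 7 genes called for DSS in mutant CD4 T cells went from 1 to 2 without a filter and with DESeq2, and to 0 with Cd3 and Trac UMIs or 4 libraries. For DSS in wildtype CD4 T cells it went from 0 to 1, and for the untreated mutant from 0 to 2, without a filter. For the mean DSS effect it went from 3 to 1 with Cd3 and Trac UMIs and to 4, with Cd69, without a filter. In Th17-like cells it went from 1 to 0 (mutant) and from 2 to 1 (mean) when gated, from 0 to 2 (wildtype) without a filter or with 4 libraries, and from 0 to 1 (untreated mutant) without a filter. In Treg-like cells the mean DSS effect went from 0 to 1 without a filter, without heat-shock-high cells and at resolution 0.5, and to 2 when gated. The difference of the DSS effects went from 1 to 0 with DESeq2 and to 3 when gated. Members per cell fell to 0.484 at 500 UMIs.

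With each library left out, the counts ranged from 0 to 2 (DSS in mutant CD4 T cells, and in mutant and wildtype Th17-like cells), 0 to 3 (mean DSS effect in CD4 T cells), 1 to 2 (Th17-like mean), 0 to 1 (Treg-like mean) and 0 to 2 (difference of the DSS effects). In CD4 T cells the values that changed sign ranged from -0.72 to 0.018 (Cd69), -0.17 to 0.20 (Nr4a1) and -0.029 to 0.41 (Nr4a3) for DSS in the mutant, -0.92 to 0.015 (Egr2) and -0.16 to 0.14 (Nfatc1) for DSS in wildtype, -0.49 to 0.26 (Cd69, interaction), -0.11 to 0.18 (Cd69) and -0.0049 to 0.44 (Nr4a3) for the untreated mutant, and -0.20 to 0.17 (Cd69, mean mutation effect). For the mutant after DSS they ranged from -0.44 to 0.30 (Cd69), -0.60 to 0.34 (Egr2), -0.27 to 0.19 (Egr3), -0.12 to 0.19 (Nfatc1), -0.084 to 0.37 (Nr4a1), -0.21 to 0.37 (Nr4a2) and -0.039 to 0.21 (Nr4a3). In Th17-like cells they ranged from -0.12 to 0.19 (Cd69, untreated mutant), -2.79 to 0.061 (Egr2, DSS in wildtype), -0.18 to 0.12 (Nfatc1, mean DSS effect) and -0.19 to 0.15 (Nr4a3, interaction). In Treg-like cells they ranged from -0.080 to 0.25 (Cd69, mean DSS effect), -0.45 to 0.21 (Cd69, mutant after DSS), -0.48 to 0.20 (Nr4a1, interaction) and -0.085 to 0.59 (Nr4a1, untreated mutant). The difference of the DSS effects ranged from -0.26 to 0.48 for Egr3.

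Over all genes, the calls for DSS numbered 541 in mutant CD4 T cells (138 to 1616 over the alternatives, 0 to 567 with a library left out), 46 in wildtype (21 to 848, 0 to 114) and 2030 for the mean (1355 to 2742, 200 to 2015). In Th17-like cells they numbered 283 (125 to 484, 58 to 334), 4 (4 to 109, 2 to 34) and 405 (186 to 700, 91 to 553), and for the Treg-like mean 913 (420 to 1226, 217 to 1113). The difference of the DSS effects had 155 (39 to 210, 100 to 208). No paired analysis was run, because the titles carry numbers that no pair of groups shares and no label states a pairing. Egr2 and Egr3 lie near the floor of these depths, and with 2 libraries per group most DSS calls of members were lost when one or another library was left out, with the direction kept. Of the 29 subset calls, 25 held in all 11 alternatives tried for them, which were not all of those listed above. The subset tests used 48 sums and called a larger share of all genes than the DSS tests. The share of all called genes that held is not given, so this is no trait of the members.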

Other observations

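Outside the T cells, fibroblast-like cells had Nr4a1 at 325 ± 119 CPM (SD, n = 8) and Egr2 at 43.1 ± 11.9 CPM. The fibroblast-like barcodes also carry T cell marker UMIs, so their levels may include T cell RNA. A small unnamed cluster led by Il22 had Nr4a3 at 392.2 CPM and Cd69 at 577 CPM. Macrophage-like cells had Nr4a1 at 95.5 CPM and Cd69 at 96.1 CPM.

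The mean number of the 7 genes found per CD4 T cell, at 1000 UMIs, was 0.766 ± 0.046 in wildtype untreated, 0.884 ± 0.018 in mutant untreated, 0.837 ± 0.014 in wildtype DSS and 0.884 ± 0.087 in mutant DSS libraries (SD, n = 2).

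In naive or central memory-like cells Cd69 was at 451 to 495 CPM in the untreated and 278 to 449.7 CPM in the DSS libraries, without overlap, as for 4.95% of genes at 20 CPM or more.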
